A study of Mus musculus with 34 samples.

Results

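The synaptic vesicle release machinery is described here as 43 genes in the 28 polyA RNA-seq libraries of the series, out of 37310 gene identifiers counted in each library. The genes were chosen by name, from what they are known to do in vesicle release, but with earlier results of these data known. The cells are CAD cells, a mouse catecholaminergic neuronal line derived from a central nervous system tumour, which stop dividing and grow processes when serum is removed. Counts are given as CPM, which is a gene's reads scaled to the assigned reads of its library, with TMM factors, within each experiment. They are not corrected for gene length, so levels are compared between samples and not between genes.

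The first experiment has cells labelled mir-138 DKO (knockout lines, per the labels) at 1 day without serum and in serum, and WT cells at 1 day without serum and in serum, and each of these 4 groups has 2 libraries. The second has WT cells at 4 days without serum and in serum, with 3 libraries each. The third has cells labelled mir-138 DKO, transfected with 3 nM miR-138 mimic, 3 nM miR-137 mimic or pUC19 plasmid DNA and taken at 2 days without serum or in serum. It also has DKO-labelled cells in serum for which no transfection is named, and each of its 7 groups has 2 libraries. Serum means 10% fetal bovine serum in all 3 experiments. The WT libraries at 4 days are WT by title although their genotype field reads mir-138 DKO. The titles call the DKO-labelled cells with no named transfection DKO_2 and the WT cells of the second experiment WT_2, without saying what the 2 stands for. The labels do not say how many clones the DKO cells come from or whether libraries of 1 group come from separate cultures, so p-values measure the spread between libraries, which may be technical. In bulk RNA, fewer cells that express a gene and less RNA per cell cannot be told apart.

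A synaptic vesicle is filled with transmitter, tethered at the active zone, primed and then fused with the plasma membrane when calcium enters. Fusion is driven by SNARE proteins on the vesicle and on the plasma membrane, synaptotagmins sense the calcium, and complexins hold back or assist the SNAREs. Scaffolds such as RIM and Bassoon organise the release site, and Rab3 and Rab27 proteins bring vesicles to it. Chromaffin and catecholaminergic cells use many of the same proteins, or close relatives, for dense-core granules.

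Of the 43 genes, 41 had at least 10 counts over all libraries. Pclo, which encodes the active zone scaffold Piccolo, had 3 counts and was not measured. Cadps2, a priming factor of dense-core granules, had 0 counts in 624161262 assigned reads, which allows a level of up to 0.00481 CPM for counting error alone. Synpr had 23 counts, Rph3a 24 and Cadps 26, so that these were close to absent as well. After the filter on low counts, 37 of the 43 genes were tested in the first experiment, 36 in the second and 28 in the third. The genes that left the test in the third experiment were mostly those near 0 in all of its groups.

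The first experiment had 22359075 to 41505181 assigned reads a library, the second had 19900317 to 28631969, and the third had 12740836 to 25582125. The targeted locus does not check the DKO label in the plain sense. In the first experiment, reads of Mir138-1 were at 9.26 and 10.9 CPM (1 day) and 5.93 and 7.73 CPM (serum) in DKO-labelled cells. WT cells there had 0.664 and 1.37 CPM (1 day) and 0.686 and 0.558 CPM (serum). The 14 libraries of the third experiment, all DKO-labelled, had only 0.945 to 2.88 CPM. WT libraries of the second experiment had 0.503 to 1.75 CPM. The experiments were scaled separately. Mir138-2 was at 0 in all 28 libraries. The cells are therefore called DKO-labelled throughout. In the first experiment, the neuronal tubulin gene Tubb3 was at 28.8 and 25.7 CPM in DKO-labelled cells in serum. In WT cells in serum it was at 474 and 457 CPM. The summed level of 11 catecholaminergic neuron markers was 1330 to 1450 CPM in DKO-labelled cells in serum and 3050 to 3160 CPM in WT cells, with Th and Slc18a2 at 0 in these DKO-labelled libraries. In WT cells in serum Th was at 2.10 and 2.17 CPM, so the defining gene of catecholamine synthesis is low even there. Slc18a2 was at 0.0762 and 0 CPM in these WT libraries, close to absent as well. The 5 fibroblast markers summed to 8.33 to 9.58 CPM in DKO-labelled cells in serum and 2.14 to 2.52 CPM in WT cells, and 2 of the 4 tested were higher, with a median of 1.79. The 9 glial markers summed to 4.63 to 5.49 CPM and 9.24 to 12.7 CPM, and the 4 blood and endothelial markers to 10.9 to 15.2 CPM and 20.9 to 24.1 CPM, with Olig2, Sox10 and Ptprc at 0 in all groups of the first experiment. These differences go along with those of the release genes below, and their part in them was not tested.

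**Figure D1:**
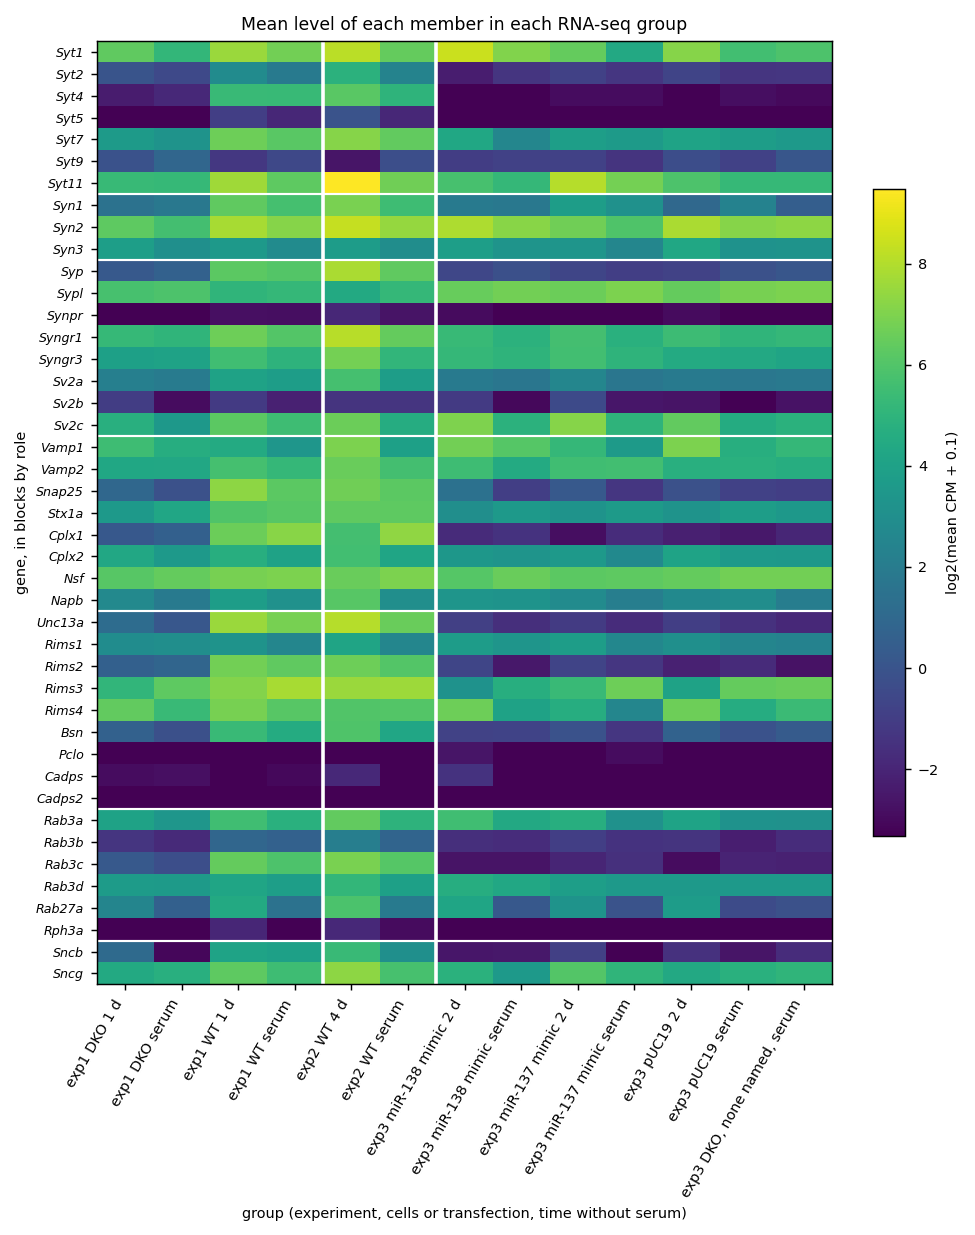
Mean level of each of the 43 genes, as log2(mean CPM + 0.1), in the 13 RNA-seq groups, with genes in blocks by role and white vertical lines between the 3 experiments. Syt4, Unc13a, Snap25, Cplx1, Rims2 and Rab3c are dark in every DKO-labelled group and bright in every WT group.

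Release genes of every role were lower in DKO-labelled cells than in WT cells, and several were nearly silent. In serum, 30 of the 37 tested genes were lower, 2 were higher and 5 did not pass a false discovery rate of 0.05 in edgeR's quasi-likelihood test, Benjamini-Hochberg adjusted. Of all 13630 genes, 40.7% passed in either direction and 21.5% were lower. The median log2 fold change was -1.54 over the 37 genes, against -0.008 over all genes, and 23 of the 30 were lower by at least 2-fold. At 1 day without serum the split was again 30 lower, 2 higher and 5 that did not pass, with a median of -1.87 against 0.007. There 44.9% of all genes passed and 23.0% were lower. Of the 37 genes, Sv2b, Rab3b and Sncb had under 10 counts in each DKO-labelled library in serum, and were in the test through other groups. They are included in these counts, which say nothing on their own for genes that entered that way.

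The fall did not have 1 size within a protein family. Among complexins, RIMs, Rab3 proteins, synapsins and synaptophysins, at least 1 gene was lower by 15-fold or more in DKO-labelled cells in serum while a paralog differed by less than 2-fold.

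Among the SNAREs, Snap25, which encodes a SNARE of the plasma membrane, was at 0.637 and 0.997 CPM in DKO-labelled cells in serum, against 73.9 and 75.7 CPM in WT cells (log2 fold change -6.56, SE 0.15, adjusted p = 2.4e-13). Stx1a, its plasma membrane partner syntaxin 1A, was at 17.6 and 20.5 CPM, against 69.5 and 70.9 CPM (-1.89, SE 0.11, adjusted p = 5.44e-09). Both genes fell without overlap, but Stx1a kept a level that Snap25 did not. Vamp2, the main vesicle SNARE of brain synapses, was at 17.9 and 22.3 CPM in DKO-labelled cells in serum and 39.3 and 33.7 CPM in WT cells (-0.86, SE 0.15, adjusted p = 0.000382). Its paralog Vamp1 went the other way, with 24.8 and 25.6 CPM against 11.2 and 9.42 CPM (1.29, SE 0.12, adjusted p = 9.78e-07). Vamp1 and Sypl were the only 2 of the 37 genes that were higher in DKO-labelled cells in serum, and the same pair was higher at 1 day (0.98 and 0.70).

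Both complexins fell in serum. Cplx1 was at 1.64 and 1.21 CPM in DKO-labelled cells in serum and 145 and 146 CPM in WT cells (-6.64, SE 0.13, adjusted p = 5.38e-14). Cplx2 was at 13.8 and 10.3 CPM in DKO-labelled cells and 15.7 and 17.6 CPM in WT cells (-0.46, SE 0.16, adjusted p = 0.0325). At 1 day the change of Cplx2 did not pass (-0.38, adjusted p = 0.0643), while that of Cplx1 was -6.50. The recycling factors fell by less than Cplx1. Nsf, the ATPase that takes spent SNARE complexes apart, was at 88.6 and 87.0 CPM against 128 and 123 CPM (-0.52, SE 0.07, adjusted p = 4.01e-05), and its adaptor gene Napb fell by 1.22 on the log2 scale (adjusted p = 0.000349).

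Of the synaptotagmins, Syt4 was listed at 0 and 0.356 CPM in DKO-labelled cells in serum, a total of 10 counts, against 41.6 and 37.3 CPM in WT cells (-8.03, SE 0.37, adjusted p = 4.12e-10). A count of 0 in the first of these libraries allows up to 0.0723 CPM. Without that library the change was -6.79, and without the other the group is at 0, so only the loss and not its exact size is set by these data. Syt7, a slow calcium sensor with high affinity, was at 9.68 and 8.87 CPM against 73.2 and 74.4 CPM (-2.99, SE 0.13, adjusted p = 1.88e-10). Syt1, the fast calcium sensor of vesicles, was at 38.3 and 33.6 CPM against 109 and 104 CPM (-1.56, SE 0.09, adjusted p = 4.23e-09). Syt11, a relative that is not a calcium sensor of fusion, was at 40.3 and 36.4 CPM against 79.8 and 79.2 CPM (-1.05, SE 0.08, adjusted p = 1.48e-07). Syt2 also fell (-2.49), and Syt9 did not pass (1.59, adjusted p = 0.0647). Syt5, too low for the test, had 0 counts in DKO-labelled cells against 11 in WT cells in serum, at least 4.32-fold lower with the floor of 3 counts set over the group. All 11 counts came from the second WT library, and without it both groups are at 0. At 1 day it had 0 counts against 7 and 14 in the WT libraries, at least 8.62-fold lower.

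The synapsins, which bind vesicles to each other and to actin, showed a graded fall. Syn1 was at 3.75 and 2.99 CPM in DKO-labelled cells in serum and 54.2 and 49.0 CPM in WT cells (-3.92, SE 0.23, adjusted p = 4.74e-09). Syn2 was at 46.4 and 52.8 CPM and 146 and 141 CPM (-1.54, SE 0.08, adjusted p = 7.93e-10). Syn3 was at 9.12 and 7.30 CPM and 8.12 and 6.01 CPM, and these groups overlap (0.23, adjusted p = 0.399). At 1 day Syn1 differed by -4.89, and by -5.65 without the second DKO-labelled library of that time.

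At the active zone, Unc13a, which encodes the priming factor Munc13-1, was at 1.08 and 0.961 CPM in DKO-labelled cells in serum and 124 and 106 CPM in WT cells (-6.80, SE 0.18, adjusted p = 7.61e-13). Rims2 was at 1.45 and 1.96 CPM against 84.3 and 78.8 CPM (-5.61, SE 0.13, adjusted p = 2.66e-13), and Bsn, the gene of Bassoon, at 0.588 and 0.926 CPM against 26.3 and 20.7 CPM (-4.99, SE 0.24, adjusted p = 7.68e-10). Each of these 3 genes was at under 2 CPM in the DKO-labelled serum libraries and above 20 CPM in the WT ones. The other RIM genes were not lost. Rims3, a short RIM of the gamma type, was at 81.3 and 74.6 CPM against 228 and 224 CPM (-1.53, SE 0.07, adjusted p = 3.4e-10). Rims4, the other short one, was at 43.3 and 37.7 CPM against 71.1 and 69.7 CPM (-0.79), and Rims1 was at 9.02 and 6.80 CPM against 5.53 and 6.11 CPM and did not pass (0.45, adjusted p = 0.113).

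Unc13a and Syn1 are also the 2 genes among those with a promoter entry that carry the left part of the RE1 element, the site known to bind REST, a repressor of neuronal genes. RefSeq promoter windows on GRCm38.p6, which reach from 250 bases before to 50 after each gene's start, were there for 34 of the 43 genes, in 46 windows. The left part TTCAGCACC, searched on both strands, is in 0.371% of all 32851 windows and in 2 of the 46, and the right part GGACAGC is in 6.56% of all windows and in 4 of the 46 (Rph3a, Sypl and Unc13a). Both windows are shown because these genes were lower in DKO-labelled cells in serum by 111-fold and 15.1-fold. The Unc13a window lies at chr8:71671708-71672007, minus strand, and the Syn1 window at chrX:20920869-20921168, minus strand. Capitals mark these parts, which in Unc13a are the reverse complements of the right part (bases 258 to 264 of the window) and the left part (bases 273 to 281), with 8 bases between them, and in Syn1 the left part as written (bases 19 to 27).
Unc13a: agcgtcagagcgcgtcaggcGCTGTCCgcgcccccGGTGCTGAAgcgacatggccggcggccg
Syn1: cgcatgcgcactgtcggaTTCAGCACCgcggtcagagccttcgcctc
A match in letters is a description of the window and no evidence of binding. Sypl holds a right part and was higher in DKO-labelled cells. Cplx1, Rab3c, Syp, Bsn and Sncb were also lower in DKO-labelled cells in serum, and their windows hold neither part. No window was there for Rims2, Rims4, Snap25, Syn3, Syngr3, Syt4, Syt5, Syt7 and Vamp2.

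Of the vesicle membrane proteins, Syp, the gene of synaptophysin, was at 0.613 and 2.35 CPM in DKO-labelled cells in serum and 68.9 and 65.1 CPM in WT cells (-5.62, SE 0.28, adjusted p = 8.54e-10). Its size rests in part on single libraries, at -4.84 without the first DKO-labelled library and -6.76 without the second. Sypl, the widely expressed relative of synaptophysin, was at 51.8 and 67 CPM against 35.6 and 38.6 CPM (0.67, SE 0.13, adjusted p = 0.000715). Synaptophysin and its relative thus went in opposite directions, without overlap of the groups. Syngr1 fell by 1.01, Syngr3 by 0.90 and Sv2a by 1.81. Sv2c, the vesicle glycoprotein that botulinum toxin A binds, was at 15.5 and 7.12 CPM against 45.4 and 44.8 CPM (-1.96, SE 0.22), and at -2.67 without the first DKO-labelled library.

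The Rab3 genes split in the same manner. Rab3c was at 0.368 and 1.14 CPM in DKO-labelled cells in serum and 58.0 and 62.3 CPM in WT cells (-6.44, SE 0.24, adjusted p = 3.51e-11), with -5.73 and -7.33 without either DKO-labelled library. Rab3a, the main Rab3 of brain, was at 11.2 and 9.47 CPM against 30.3 and 24.5 CPM (-1.40, SE 0.14, adjusted p = 2.21e-06). Rab3d, found in many secretory cells, was at 13.3 and 11.5 CPM against 14.4 and 14.6 CPM and did not pass (-0.22, adjusted p = 0.245). Rab3b (-2.98, adjusted p = 0.00546) and Rab27a (-0.89, adjusted p = 0.0237) were low, and both calls were lost without the first WT serum library (adjusted p = 0.11 and 0.207), that of Rab27a also without the second DKO-labelled library (0.114). Without the second WT serum library Rab3b was at -3.57.

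The synucleins are small presynaptic proteins related to alpha-synuclein. Sncb had 1 count in the DKO-labelled serum libraries together and 871 in the WT ones, a ratio of 0.000975 with an exact 95% counting interval of 2.47e-05 to 0.00545. At 1 day it was at 1.63 and 2.53 CPM in DKO-labelled cells and 18.5 and 15.4 CPM in WT cells (-3.01, SE 0.26, adjusted p = 3.27e-07). Sncg was at 24.1 and 29.3 CPM against 46.6 and 44.9 CPM in serum (-0.78, SE 0.10, adjusted p = 3.1e-05) and differed by -1.88 at 1 day.

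**Figure D2:**
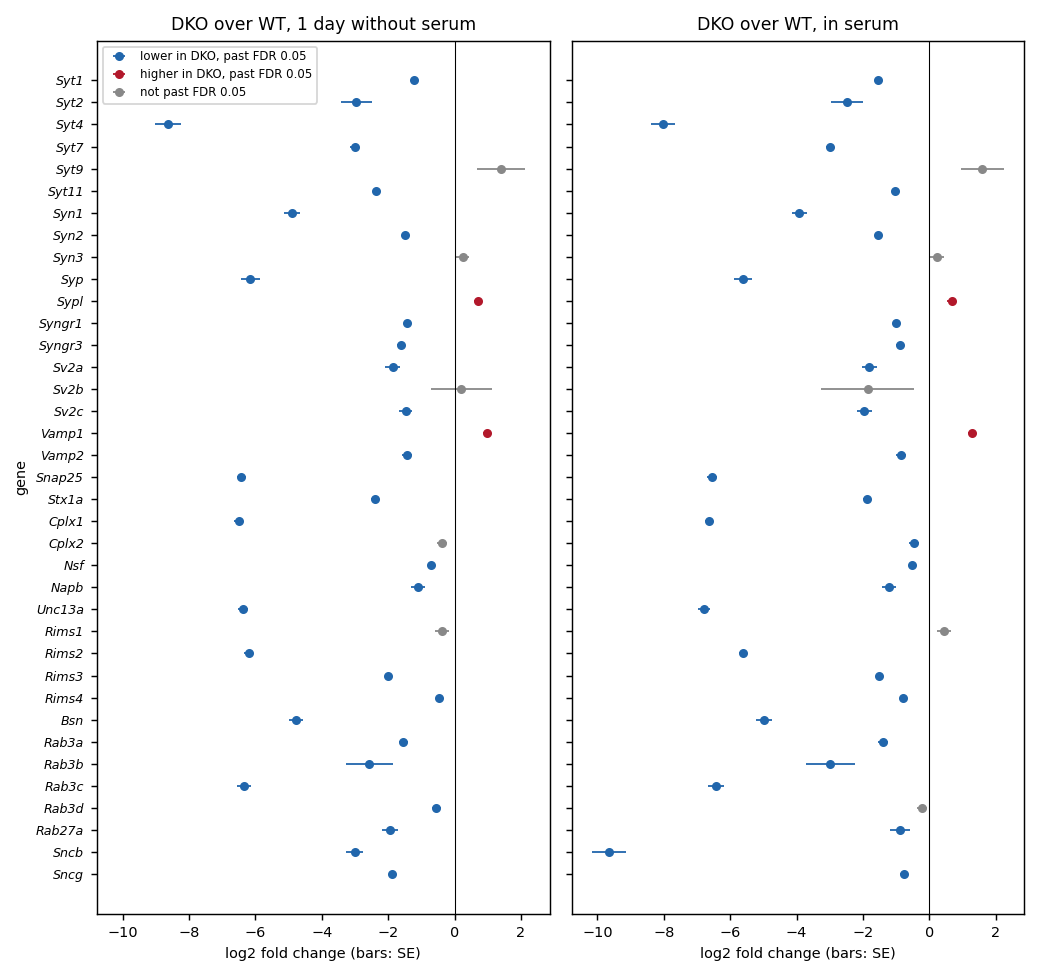
Log2 fold change of the 37 tested genes, DKO-labelled over WT cells, at 1 day without serum (left) and in serum (right), with bars for the SE and colours for the call at a false discovery rate of 0.05. In serum 30 points are called lower and 2 called higher, and the points reach from -9.65 for Sncb to 1.59 for Syt9.

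Genes next to the 43 in function were less uniform. Of 31 other release genes 20 were tested in serum, of which 14 were lower and 2 higher in DKO-labelled cells, with a median of -0.62. Doc2a, a calcium-binding release factor, differed by -3.87 (adjusted p = 2.11e-05) and Ppfia3, the gene of the active zone protein liprin-alpha-3, by -3.38 (adjusted p = 3.71e-08). Of 25 widely expressed SNAREs and partners 23 were tested. Of these 4 were lower, 4 higher, and 15 did not pass, with a median of 0.10. Of 24 genes of vesicle endocytosis 20 were tested, 10 lower and 6 higher, with the neuronal clathrin adaptor gene Snap91 at -4.12 and the dynamin gene Dnm3 at 3.39. Of 7 vesicular transmitter transporters only 2 were tested, and Slc18a1, the monoamine transporter of chromaffin cells, was higher (0.59, adjusted p = 0.012).

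In WT cells, 4 days without serum raised most of the release genes. Of 36 tested, 30 were higher, 3 lower, and 3 did not pass, with a median log2 fold change of 1.44 against 0.043 over all genes. The background is high in this comparison, with 70.9% of 13283 genes past the threshold and 36.2% higher. All 6 tested synaptotagmins, all 3 synapsins and all 5 tested Rab genes were higher. Syt9, a synaptotagmin too low for the test, went the other way, with 0, 4 and 0 counts at 4 days and 14, 32 and 9 in serum. Syt5, which had 12 counts in serum in all, passed the filter on low counts through the 4-day libraries.

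Rab27a, the gene of a GTPase that docks secretory vesicles, was at 57.3, 51.7 and 61.4 CPM at 4 days and 3.57, 3.73 and 3.62 CPM in serum (3.96, SE 0.14, adjusted p = 2.69e-11). Napb was at 82.4, 66.8 and 66.5 CPM against 7.64, 9.24 and 6.59 CPM (3.19, SE 0.15, adjusted p = 3.52e-10). Vamp1 was at 152, 124 and 97.8 CPM against 15, 14.5 and 16.0 CPM (3.04, SE 0.15, adjusted p = 5.13e-10). These 3 genes had the largest rises of the 36, each 8-fold or more, with no overlap between the groups. Syt11 followed with 729, 679 and 725 CPM against 105, 101 and 106 CPM (2.78, SE 0.07, adjusted p = 4.11e-12). Syt1 was at 311, 281 and 266 CPM against 87.7, 87.9 and 90.0 CPM (1.69, SE 0.08), and Syt2 rose by 2.51.

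Complexins and synaptophysins, which differed between the cell lines, changed in opposite directions within each pair over 4 days, whereas Vamp1 and Vamp2 (0.91) both rose. Cplx1 fell to 58.9, 41.2 and 52.8 CPM at 4 days, against 161, 159 and 168 CPM in serum (-1.67, SE 0.11, adjusted p = 1.27e-08). Cplx2 was at 65.8, 37.8 and 43.7 CPM against 18.4, 21.4 and 16.0 CPM (1.40, SE 0.19, adjusted p = 1.42e-05). Neither gene's 4-day libraries overlapped its serum libraries, and the directions were opposite. Syp was at 259, 190 and 234 CPM against 84.1, 77.7 and 81.7 CPM (1.49), while Sypl was at 20.6, 23.8 and 21.6 CPM against 40.6, 36.3 and 31.3 CPM (-0.72, SE 0.13, adjusted p = 0.000232). Nsf fell by 0.36 (adjusted p = 0.000934) as its adaptor Napb rose.

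Among plasma membrane SNAREs, Stx1a did not pass, with 85.4, 80.3 and 82.6 CPM at 4 days and 82.3, 78.7 and 76.4 CPM in serum (0.06, adjusted p = 0.483), and Snap25 rose by 0.46 (adjusted p = 0.000613). At the active zone Bsn was at 59.7, 59.1 and 65.1 CPM against 14.5, 18.7 and 22.8 CPM (1.72, SE 0.14, adjusted p = 1.38e-07). Unc13a rose by 1.49, Rims1 by 1.62 and Rims2 by 0.61. Rims3 (-0.08, adjusted p = 0.435) and Rims4 (-0.06, adjusted p = 0.621) did not pass. Of the remaining genes Sv2c rose by 2.02, Sv2a by 1.93, Syngr3 by 1.75, Syngr1 by 1.67, Sncb by 2.34 and Sncg by 1.56, and among the Rab3 genes Rab3a rose by 1.47, Rab3d by 1.2 and Rab3c by 0.81. The catecholaminergic markers did not move as 1 list. Of 10 tested 4 were higher, 3 lower and 3 did not pass, with a median of -0.08. Their sum of 8890 to 11200 CPM at 4 days, against 3220 to 3300 CPM in serum, was mostly the granin gene Chgb, at 8640, 6570 and 7090 CPM against 1180, 1150 and 1120 CPM. Dbh, the gene of dopamine beta-hydroxylase, was at 4.45, 5.62 and 7.01 CPM against 54, 51.1 and 59.5 CPM. The 3 tested fibroblast markers were all higher at 4 days, with a median of 2.83, and the list summed to 8.17 to 11 CPM against 1.21 to 1.92 CPM. The part of these markers in the results was not tested. Of the wider lists, 13 of 20 other release genes rose and 2 fell, 13 of 23 widely expressed SNAREs rose and 8 fell, and 8 of 20 endocytosis genes rose and 6 fell.

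**Figure D3:**
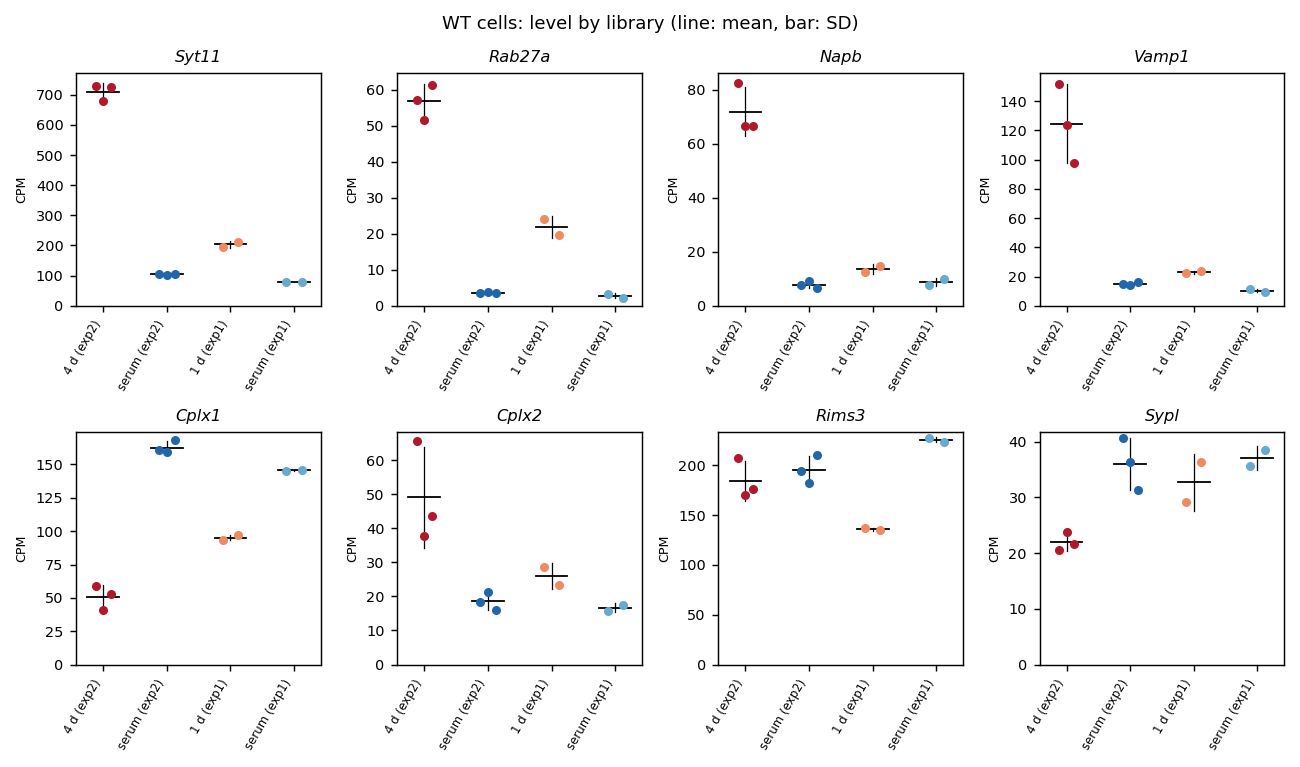
Level of 8 genes in each WT library of the 2 experiments, as CPM, with a line at the mean and a bar for the SD. Syt11, Rab27a, Napb, Vamp1 and Cplx2 are higher at 4 days and at 1 day than in their own serum libraries, Cplx1 is lower at both times, and Rims3 is lower at 1 day.

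At 1 day without serum WT cells already had 23 of 37 genes higher, 2 lower, and 12 did not pass, with a median of 0.62. Over all genes 40.7% passed and 20.4% were higher. Rab27a again led, with 24.1 and 19.7 CPM at 1 day and 3.24 and 2.26 CPM in serum (3.00, SE 0.25, adjusted p = 6.7e-07). Syt11 was at 196 and 211 CPM against 79.8 and 79.2 CPM (1.36, SE 0.08, adjusted p = 3.06e-08). Snap25 was at 154 and 161 CPM against 73.9 and 75.7 CPM (1.08, SE 0.09), and Vamp1 at 22.1 and 23.6 CPM against 11.2 and 9.42 CPM (1.15, SE 0.12). The 2 that fell were Cplx1 (-0.61, adjusted p = 7.55e-05) and Rims3, at 137 and 135 CPM against 228 and 224 CPM (-0.73, SE 0.07, adjusted p = 1.6e-06). Rims4 moved opposite to Rims3, at 120 and 114 CPM against 71.1 and 69.7 CPM (0.73, SE 0.09). Syn1 (0.65), Syn3 (0.77), Syt7 (0.43), Sv2c (0.74), Cplx2 (0.64) and Rab3c (0.55) passed in the full data, but each lost its call without 1 or more of the 4 WT libraries, with adjusted p up to 0.122, 0.108, 0.0719, 0.0877, 0.0912 and 0.103. These losses came without serum library 1 (Rab3c, Cplx2, Syn1, Syt7 and Sv2c), serum library 2 (Rab3c, Syn3, Syn1, Syt7 and Sv2c), 1-day library 1 (Rab3c, Cplx2, Syn3, Syn1 and Sv2c) and 1-day library 2 (Syt7).

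In DKO-labelled cells 1 day without serum, 16 of the 37 genes were higher, 4 lower, and 17 did not pass, with 40.3% of all genes past it and 19.9% higher. Sv2b, Rab3b and Sncb had under 10 counts in each DKO-labelled serum library, and Syt4 in each DKO-labelled 1-day library. All were in the test through other groups, and 18 of the remaining 33 genes passed. Of the synaptotagmins Syt1 had the lowest adjusted p, with 74.4 and 86.3 CPM at 1 day and 38.3 and 33.6 CPM in serum (1.16, SE 0.09, adjusted p = 3.27e-07). Rab27a was at 5.87 and 5.45 CPM against 1.84 and 1.03 CPM (1.94, SE 0.27), and Rims4 at 88.2 and 80.4 CPM against 43.3 and 37.7 CPM (1.05, SE 0.09). Rims3 fell here too, to 33.9 and 33.8 CPM against 81.3 and 74.6 CPM (-1.20, SE 0.07, adjusted p = 3.18e-08), as did Stx1a (-0.72) and Nsf (-0.32). Syt11, by contrast, was at 41.6 and 37.7 CPM and 40.3 and 36.4 CPM, in overlapping groups (0.05, adjusted p = 0.704). Snap25 was at 2.10 and 1.58 CPM against 0.637 and 0.997 CPM, a rise of 1.22 (adjusted p = 0.000925). Sncb had 128 counts against 1, a ratio of 144 with a counting interval of 25.5 to 5750, and Sv2b 25 against 2, a ratio of 14.1 (3.52 to 123). Sv2c rose by 1.23, or 1.92 without the first serum library, without which Bsn (1.01, then adjusted p = 0.15) and Sv2b (0.21) lost their calls. The calls of Bsn, Syt7 (0.41), Sncg (-0.30) and Sv2b were lost without the first 1-day library (adjusted p = 0.201, 0.427, 0.155 and 0.125), those of Unc13a (1.13), Sncg and Sv2b without the second (0.0912, 0.101 and 0.124) and that of Sncg without the second serum library (0.301).

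The response to 1 day without serum was then tested for a difference between the cell lines with an interaction term, which 9.72% of all genes and 6 of the 37 passed. Syt11 was the clearest, with a rise in WT cells that DKO-labelled cells did not show (-1.31, SE 0.12, adjusted p = 8.46e-06). Sncg rose by 0.80 in WT cells and did not rise in DKO-labelled cells (-1.10, SE 0.15, adjusted p = 0.000301). Syngr3 (-0.73) and Syngr1 (-0.43) were lower in the same sense. Rims3 (-0.47) fell in both cell lines, and by more in DKO-labelled cells. Sncb was higher, with only 1 count in the DKO-labelled serum cells. The count of genes that passed was 3 without the first WT 1-day library and 13 without the first DKO-labelled serum library. The calls of Syngr3, Rims3 and Syngr1 were lost without at least 1 library, with adjusted p up to 0.0826, 0.075 and 0.156.

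In the third experiment the genes that were nearly silent in DKO-labelled cells stayed so. Over its 14 libraries Cplx1 was at 0 to 0.334 CPM, Unc13a at 0.0527 to 0.476, Rims2 at 0 to 0.581, Syt4 at 0 to 0.0785, Rab3c at 0 to 0.333, Sncb at 0 to 0.654 and Syp at 0.333 to 1.15 CPM. Neither mimic brought any of these 7 genes above 1.2 CPM. Snap25 stayed at or below 2.74 CPM. Of the 28 tested genes Syt9, Syp, Snap25 and Bsn had under 10 counts in every library of at least 1 group, so the counts of called genes below say little for these 4. The level of these genes in WT cells was measured in other experiments, which were scaled separately.

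The mimics are named in the labels as miR-138 and miR-137. The mature strands that these names usually mean are shown to let a reader follow the seed, bases 2 to 8, which is in capitals. They are the RefSeq entries on GRCm38.p6, of which the first is encoded at chr8:94324312-94324334 and chr9:122682898-122682920 and the second at chr3:118433901-118433923. The seeds differ, and the labels do not give the strands of the mimics.
mmu-miR-138-5p: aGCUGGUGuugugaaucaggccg
mmu-miR-137-3p: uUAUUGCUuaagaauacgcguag

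In serum, libraries with pUC19 differed from those with no named transfection in some of the release genes. Of 28 tested, 2 were higher, 4 lower, and 22 did not pass. The share that passed was 21.4%, near the 26.2% of all 12655 genes. Syn1 was at 4.53 and 5.5 CPM with pUC19 and 1.11 and 1.53 CPM with no named transfection (1.90, SE 0.26, adjusted p = 3.15e-05), and Napb at 8.79 and 6.60 CPM against 4.64 and 3.82 CPM (0.89, adjusted p = 0.000547). Rims4 was at 22.9 and 25.4 CPM against 42.2 and 43.1 CPM (-0.83, SE 0.08, adjusted p = 4.22e-07). Syt1 (-0.27), Vamp1 (-0.51) and Sv2c (-0.28) fell slightly. Syt1 lost its call without the first library with no named transfection (adjusted p = 0.103) or the second pUC19 library (0.0567), and Vamp1 without the second library with no named transfection (0.0757) or the first pUC19 library (0.0616). Sv2c lost it without any 1 of the 4, with adjusted p from 0.0657 to 0.216. The mimics are compared with pUC19 below.

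Without serum for 2 days, the DKO-labelled cells changed a set of release genes in all 3 transfections. With pUC19 14 of 28 were higher and 6 lower (59.7% of all genes past the threshold, 28.4% higher). With miR-138 mimic 16 were higher and 4 lower (63.3% and 31.1%), and with miR-137 mimic 20 were higher and 3 lower (65.8% and 33.2%). Rab27a was at 17.9 and 18.7 CPM at 2 days with miR-138 mimic, against 1.14 and 0.964 CPM in serum (4.11, SE 0.17, adjusted p = 1.4e-13). It was at 10.3 and 8.65 against 0.665 and 1.07 CPM with miR-137 mimic (3.45) and at 12.6 and 14 against 0.546 and 0.785 CPM with pUC19 (4.35). Sv2c rose by 2.13, 2.17 and 1.85 in the same order, Rims4 by 2.64, 2.13 and 2.05 and Syt1 by 1.42, 2.08 and 1.54. Rims3 fell in all 3, by 1.5, 1.3 and 2.37. The direction of Rims3 and Rims4 matched that at 1 day in the first experiment, in other libraries. With miR-138 mimic Snap25 was at 2.51 and 2.74 CPM at 2 days and 0.591 and 0.259 CPM in serum (2.62, SE 0.39, adjusted p = 6.87e-06), and at 3.31 without the first serum library.

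Against pUC19, each mimic changed some release genes up and others down. With miR-138 mimic 7 of 28 were higher and 8 lower in serum, and 12 higher and 6 lower at 2 days, where 56.0% and 62.0% of all genes passed. With miR-137 mimic 6 were higher and 9 lower in serum, and 10 higher and 8 lower at 2 days, where 45.6% and 42.7% of all genes passed. For either mimic the release genes called were 15 of 28 (53.6%) in serum and 18 of 28 (64.3%) at 2 days. These shares lie within 3 percentage points of the background for miR-138 mimic and above it for miR-137 mimic. The 2 comparisons share their pUC19 libraries.

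**Figure D4:**
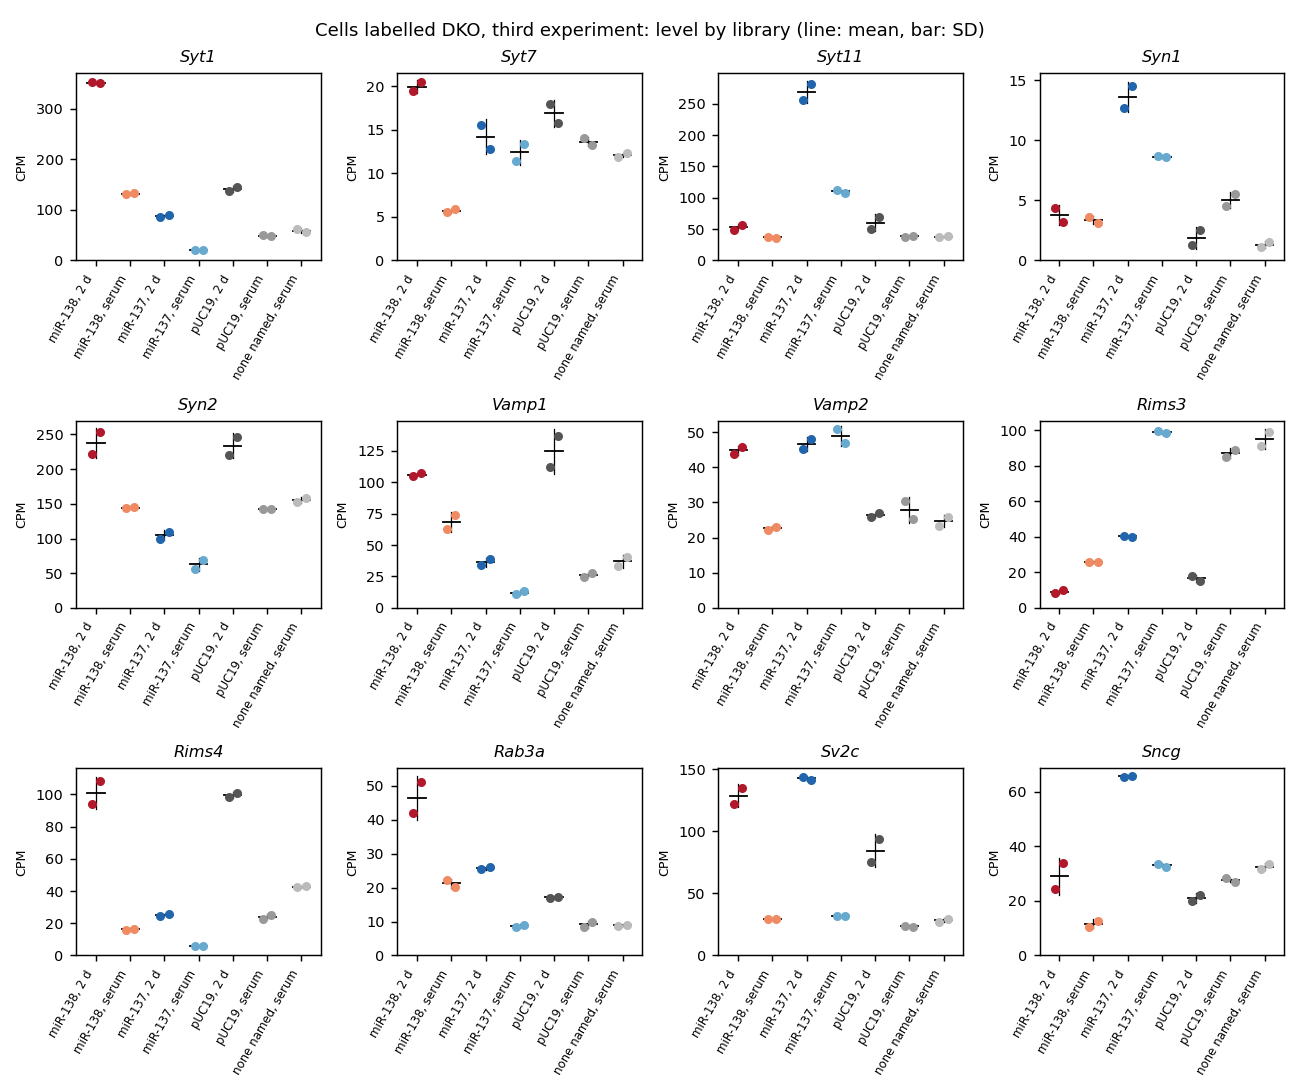
Level of 12 genes in each of the 14 libraries of the third experiment, as CPM, with a line at the mean and a bar for the SD. Syt1 is highest with miR-138 mimic and lowest with miR-137 mimic at either time, Syt11 is highest with miR-137 mimic, and Rims4 is lowest with miR-137 mimic at either time.

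Of the calcium sensors, Syt1 was at 131 and 133 CPM with miR-138 mimic and 20.2 and 21.3 CPM with miR-137 mimic in serum, against 49.8 and 47.4 CPM with pUC19. The log2 fold changes were 1.43 (SE 0.06, adjusted p = 8.55e-13) and -1.23 (SE 0.08, adjusted p = 1.71e-10). At 2 days the levels were 353 and 350 CPM, 86.2 and 89.1 CPM, and 137 and 146 CPM with pUC19 (1.31 and -0.69). The mimic groups lay on either side of pUC19 at both times, without overlap. Syt11 was at 112 and 108 CPM with miR-137 mimic in serum, against 38.1 and 39.0 CPM with pUC19 (1.52, SE 0.10, adjusted p = 4e-10), and at 256 and 281 CPM against 50.7 and 69.5 CPM at 2 days (2.16, SE 0.09, adjusted p = 1.5e-12). With miR-138 mimic Syt11 did not pass at either time (-0.08 and -0.18). Syt7 was at 5.55 and 5.86 CPM with miR-138 mimic in serum, against 14 and 13.3 CPM (-1.26, SE 0.13, adjusted p = 7.23e-08), but not past the threshold at 2 days (0.24, adjusted p = 0.0719).

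All 3 synapsins moved with miR-137 mimic. Syn2 was at 56.4 and 69.0 CPM in serum, against 143 and 142 CPM with pUC19 (-1.19, SE 0.08, adjusted p = 8.69e-10), and fell by 1.16 at 2 days. Syn1 was at 12.7 and 14.5 CPM at 2 days against 1.24 and 2.52 CPM with pUC19 (2.89, SE 0.23, adjusted p = 4.92e-09). Its rise in serum (0.80) lost its call without the first pUC19 serum library (adjusted p = 0.0536). Syn3 fell by 0.97 at 2 days and by 0.65 in serum, where the call was lost without the first miR-137 mimic library (adjusted p = 0.0596). Syn2 did not pass with miR-138 mimic (0.02 at both times), and the changes of Syn1 with it, -0.57 in serum and 1.04 at 2 days, were lost without single libraries. These were the second mimic or second pUC19 library in serum (adjusted p = 0.142 and 0.184) and the first mimic or first pUC19 library at 2 days (0.0615 and 0.0858).

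The vesicle SNAREs moved in opposite directions with miR-137 mimic. Vamp1 was at 11.1 and 13.4 CPM with it in serum, against 24.9 and 27.5 CPM with pUC19 (-1.10, SE 0.15, adjusted p = 5.04e-06), and fell by 1.77 at 2 days. Vamp2 was at 50.9 and 46.8 CPM against 30.5 and 25.3 CPM (0.80, SE 0.09, adjusted p = 3.94e-07), and rose by 0.82 at 2 days. With miR-138 mimic Vamp1 was at 62.9 and 73.8 CPM in serum (1.39, SE 0.11, adjusted p = 4.49e-09), and Vamp2 rose by 0.77 at 2 days. A lower Vamp2 with miR-138 mimic in serum (-0.31) did not pass without the first pUC19 library (adjusted p = 0.25). Snap25 was at 2.51 and 2.74 CPM with miR-138 mimic at 2 days against 0.886 and 0.748 CPM with pUC19 (1.66, SE 0.38, adjusted p = 0.000796), which is far below its level of 73.9 and 75.7 CPM in WT cells in serum of the first experiment. Stx1a did not pass in any of the 4 comparisons of mimic with pUC19. Cplx2 fell with miR-137 mimic (-0.87 in serum, -0.56 at 2 days) and with miR-138 mimic at 2 days (-0.66).

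Among active zone genes, Rims4 was at 5.59 and 5.93 CPM with miR-137 mimic in serum, against 22.9 and 25.4 CPM with pUC19 (-2.06, SE 0.11, adjusted p = 2.89e-11), and at 24.8 and 25.6 CPM against 98.5 and 101 CPM at 2 days (-1.98, SE 0.08). With miR-138 mimic Rims4 fell by 0.57 in serum and did not pass at 2 days (0.01). Rims3 was at 26.1 and 25.6 CPM with miR-138 mimic in serum, against 85.0 and 89.1 CPM with pUC19 (-1.75, SE 0.07, adjusted p = 3.89e-13), and fell by 0.88 at 2 days. With miR-137 mimic it was at 40.5 and 40.0 CPM at 2 days against 18.0 and 15.4 CPM (1.26, SE 0.09, adjusted p = 9.43e-10). Rims3 thus fell with miR-138 mimic at both times, and Rims4 fell with miR-137 mimic at both times. The mimics were not tested against each other. Rims1 rose with miR-138 mimic in serum (0.92) and with both mimics at 2 days (0.71 with miR-138 and 0.74 with miR-137).

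Of the vesicle membrane and Rab genes, Rab3a was at 22.2 and 20.3 CPM with miR-138 mimic in serum, against 8.52 and 9.90 CPM with pUC19 (1.22, SE 0.11, adjusted p = 2.87e-08), and rose by 1.43 at 2 days. With miR-137 mimic it did not pass in serum (-0.07) and rose by 0.58 at 2 days. Rab3d rose with miR-138 mimic (0.75 in serum, 1.02 at 2 days) and did not pass with miR-137 mimic. Syngr3 and Sv2c rose with both mimics at both times, Syngr3 by 0.60 and 0.68 with miR-138 and by 0.60 and 1.07 with miR-137. Sncg was at 10.5 and 12.8 CPM with miR-138 mimic in serum, against 28.3 and 27.1 CPM (-1.25, SE 0.12, adjusted p = 6.26e-08), and at 65.6 and 65.8 CPM with miR-137 mimic at 2 days, against 19.8 and 22.3 CPM (1.64, SE 0.12, adjusted p = 1.06e-09). Tubb3 moved with the mimics as well, by -1.49 and -2.32 with miR-138 and by 1.15 and 2.46 with miR-137 in serum and at 2 days. The 5 fibroblast markers summed to 38.2 to 38.3 CPM with miR-138 mimic at 2 days, and to 16.5 to 17 CPM with miR-137 mimic at 2 days, against 26.2 to 29.0 CPM with pUC19. The 9 glial markers summed to 17.7 to 18.8 CPM and 7.63 to 9.08 CPM, against 9.8 to 10.7 CPM with pUC19. With miR-138 mimic at 2 days the glial sum was mostly Aqp4, at 14.3 and 14.9 CPM. The fibroblast sum was mostly Dcn, at 33.4 and 30.5 CPM. Against pUC19, 1 of the 5 fibroblast markers was higher there and 1 lower, and 1 of 3 tested glial markers was higher. The part of Tubb3 and of these markers in the results above was not tested.

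Whether the effect of a mimic differed between 2 days and serum was tested with interaction terms, which 27.8% of all genes passed for miR-138 and 23.3% for miR-137. For miR-138 mimic 8 of 28 release genes passed. Syt7 (1.5, SE 0.17, adjusted p = 2.21e-06) and Sncg (1.71, SE 0.17, adjusted p = 5.92e-07) were lowered in serum but not at 2 days. Vamp1 (-1.62, SE 0.15, adjusted p = 1.99e-07) was raised in serum. At 2 days Vamp1 was slightly lower, at 105 and 107 CPM with miR-138 mimic against 112 and 137 CPM with pUC19. At 2 days Sncg was higher with miR-138 mimic than with pUC19 (0.46), but only by 0.2 without the second mimic library of that time. For miR-137 mimic 10 of 28 passed, led by Rims3 (1.08, SE 0.11, adjusted p = 1.07e-06), Sncg (1.39, SE 0.16, adjusted p = 6.1e-06) and Syn1 (2.08, SE 0.31, adjusted p = 8.39e-05).

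Each of the wider lists below held genes that were higher and genes that were lower with either mimic, at both times. With miR-138 mimic 12 of 23 widely expressed SNAREs were higher and 2 lower in serum, and 14 higher and 2 lower at 2 days, with Stx2 at 0.94 and Snap23 at 0.67 at 2 days. With miR-137 mimic 6 were higher and 6 lower in serum, and 7 higher and 2 lower at 2 days. Of 16 other release genes 8 were higher and 5 lower with miR-138 mimic in serum, led by Rimbp2, the gene of a RIM-binding protein (1.15, adjusted p = 1.73e-10), which also rose with miR-137 mimic (0.86). At 2 days 4 of these 16 were higher and 6 lower with miR-138 mimic. With miR-137 mimic 5 were higher and 2 lower in serum, and 6 higher and 4 lower at 2 days. Of 20 endocytosis genes 8 were higher and 5 lower with miR-138 mimic in serum, and 10 higher and 3 lower at 2 days. With miR-137 mimic 9 were higher and 4 lower in serum, and 11 higher and 3 lower at 2 days. Among them Dnm3 rose with miR-138 mimic at 2 days (1.87, adjusted p = 1.63e-11) and fell with miR-137 mimic in serum (-1.63, adjusted p = 9.48e-09).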

How the data were processed

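RNA was measured in 28 polyA RNA-seq libraries in 13 groups, and 6 small RNA libraries were not used here. The deposited files hold raw read counts for each gene, which the authors made with STAR against mm9, per the submitters' processing notes. For annotation and tool versions, sources used here give nothing. Column 4, the strand of dUTP libraries, was used, and reads that mapped to several places are not in it. Ensembl identifiers were matched to symbols (32620 of 37310).

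The 3 experiments were fitted apart in R 4.3.3 with edgeR 4.0.16 and limma 3.58.1, and read with the package data.table (1.17.8) and, for sequences and figures, Python 3.11.15, pandas 2.3.3 and matplotlib 3.10.9. filterByExpr set the filter (a count of 10 and a total of 15) and TMM the scaling. The test was edgeR's quasi-likelihood test, two-sided, with p-values adjusted by Benjamini and Hochberg's method across every gene tested in that comparison, and 0.05 as the limit. Of 16 comparisons 3 were interactions. Differences are log2 fold changes, the first-named group over the second, with standard errors (SE). The scripts were tested on simulated data. Levels in CPM come from separate scalings per experiment. Intervals (95%) and bounds (3 counts over a group, or per library for a level) cover counting error only.

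Named genes are, in each comparison, up to 4 genes per role group past the threshold, lowest adjusted p first, and up to 4 per related list. Others are given where a paralog or range is described and were chosen after their values were seen. The 43 genes and all lists were chosen with earlier results of these data known.

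No 2 libraries held identical counts or agreed within sampling noise. Replicate numbers did not pair the libraries. Alternatives were DESeq2 1.42.0, its size-factor scaling (RLE), no low-count filter, unstranded counts, the compared libraries alone, the replicate number as a block, and leaving out each library.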

Additional observations from a re-analysis of the deposited data

Results flagged for a closer look

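The results below are responses that differed between cells or transfections by an interaction term past a false discovery rate of 0.05 in edgeR's quasi-likelihood test. All are log2 differences, each reported with no explanation.

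The response to 1 day without serum, in DKO-labelled minus WT cells, differed for Syt11 (-1.31), Sncg (-1.10), Syngr3 (-0.73), Rims3 (-0.47), Syngr1 (-0.43) and Sncb (6.64). The value for Sncb rests on 1 count in DKO-labelled serum cells. It was 5.55 without the first and 8.84 without the second of those libraries, so that its size is not set by these data.

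The effect of miR-138 mimic over pUC19, at 2 days minus in serum, differed for Sncg (1.71), Syn1 (1.61), Syt7 (1.5), Vamp2 (1.07), Rims3 (0.87), Rims4 (0.58), Syn3 (-0.61) and Vamp1 (-1.62). The call of Syn3 was lost without the second miR-138 mimic serum library (adjusted p = 0.0619) or the first pUC19 serum library (0.103).

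The effect of miR-137 mimic over pUC19, at 2 days minus in serum, differed for Syn1 (2.08), Sncg (1.39), Rims3 (1.08), Napb (0.95), Rab3a (0.65), Syt11 (0.65), Syt1 (0.54), Syngr3 (0.47), Syngr1 (0.43) and Vamp1 (-0.67). Vamp1 lost its call without 1 of 3 libraries (adjusted p up to 0.11), Napb without the first pUC19 serum library (0.0526), Rab3a without 1 of 2 (up to 0.0536), and Syngr3 and Syngr1 without 1 of 4 and 1 of 7 (up to 0.217 and 0.135).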

How the results depend on the processing

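The counts of release genes past the threshold stayed within 1.5 times under every alternative in 15 of the 16 comparisons. The exception was the interaction of cell line and 1 day without serum, with 6 genes. It gave 12 with no low-count filter and 3 to 13 with 1 library left out. With the replicate block the counts were 32 of 37 for DKO-labelled over WT cells in serum, 33 of 36 for WT cells at 4 days and 8 for that interaction. The block moved no count by over 1.5 times. Correlations of same-numbered libraries were 0.043 to 0.084 in experiment 1, -0.042 to 0.033 in experiment 2 and -0.25 to 0.173 in experiment 3, so the numbers were not taken as pairs. Over 265 results of named genes and 2763 alternatives, 2609 kept direction and call, 154 lost the call and 0 reversed, and 213 results kept the call throughout. With 2 libraries in most groups, the spread is estimated over all groups of an experiment. Genes with under 10 counts in each library of a group, such as Sncb in serum and Syt4 at 1 day in DKO-labelled cells, have a direction but no firm size.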
